A study of Rattus norvegicus with 6 samples.

Results

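Mitochondrial ribosomal proteins are made from nuclear genes named Mrpl (large subunit) and Mrps (small subunit). Array probes whose transcript accession matched a rat RefSeq gene with a symbol starting Mrpl or Mrps were selected, which gave 66 genes on 113 probes, of 15284 named genes and 61657 non-control probes on the array. Each gene was read by the probe with the highest mean signal, and the rule itself uses no difference between the groups. Of the 78 protein-coding rat genes with such symbols in RefSeq, 12 had no matched probe (Mrpl28, Mrpl33, Mrpl39, Mrpl41l1, Mrpl42l1, Mrpl43, Mrps10, Mrps21l, Mrps28, Mrps36l1, Mrps6 and Mrps7) and were not analysed here. All 66 genes were well above background on all 6 arrays and were tested.

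Total liver RNA of 6 male Sprague-Dawley rats, Crl:CD(SD), bought at 5 weeks of age, was hybridised to one-colour Agilent arrays, one array a sample. The tBA group (3 samples) received 1000 mg/kg/day of tert-butyl alcohol, a small branched alcohol used as a solvent, and the vehicle group (3 samples) received the carrier alone. The labels disagree on both the carrier, which is purified water in the sample labels and corn oil in the treatment protocol, and the duration, which is 28 days in the series design and 9 weeks in the treatment protocol. No genetic alteration was described in either group, and both were fed the same basal diet. The 3 vehicle arrays and the tBA replicate 1 array shared one slide and scan day, whereas tBA replicates 2 and 3 lay on a second slide. The 75th percentile of spot signal ran from 569.9 to 584.3 on the tBA arrays and from 593.8 to 639.1 on the vehicle arrays, between 61.5% and 66.9% of probes were well above background on an array, and no spot was saturated. Values below are log2 signal minus the array's 75th percentile. Differences are tBA minus vehicle on that scale, with the standard error (SE) of the limma fit and p-values adjusted over all 37647 probes tested.

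The mitochondrial ribosome translates the few messages that the mitochondrial genome encodes, all of them for subunits of the respiratory chain and ATP synthase. Its ribosomal RNAs are transcribed inside the organelle, whereas its proteins are translated in the cytosol, imported and assembled there. Some of these proteins have homologues in the bacterial ribosome and others are found only in mitochondria, where they replace or extend parts of the bacterial structure. Liver is rich in mitochondria, and its hepatocytes depend on oxidative phosphorylation for the synthesis of glucose, urea and plasma proteins.

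RefSeq promoter windows of the GRCr8 assembly, from 250 bases before to 50 after the first listed start, were found for 54 of the 66 genes. Windows were searched on both strands for the core letters CCGGAAG (bound by ETS factors such as GABP), GCGCATGC (NRF1) and AAGATGGCG (YY1), factors known from human and rodent studies to bind promoters of nuclear genes for mitochondrial proteins. CCGGAAG was found in 19 of 54 windows (35.2%), against 16.7% of 9103 windows of tested genes and 9.22% of all 27457 windows. AAGATGGCG was in 8 of 54 (14.8%), against 3.27% and 1.93%, and GCGCATGC in 5 of 54 (9.26%), against 4.5% and 2.66%. At least one of these 3 was in 28 windows (51.9%), against 22.4% of tested genes and 12.8% of all windows. GGGCGG, the core of the SP1 site, was in 28 windows (51.9%), against 57.6% and 34.9%. Median GC content was 56.2%, against 59.7% in tested genes and 52.3% in all windows. The letters are a description of sequence, and binding was not measured.

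Stretches before 5 of these starts are printed 5′ to 3′ in the direction of the gene, with the ETS, NRF1 and YY1 core letters in capitals. All but the last were taken in order of p-value, smallest first, from genes with any of these letters before the start. Mrps31 (chr16:76324066-76324315, minus strand) had the smallest p-value in the small subunit. Mrpl17 (chr1:169575700-169575949, minus strand) and Mrpl44 (chr9:88554800-88555049, plus strand) hold the palindromic overlap of the NRF1 letters. Mrpl36 (chr1:31795122-31795371, minus strand) holds both ETS and YY1 letters. The last is the whole stretch of 233 bases between the starts of Mrpl46 and Mrps11 (chr1:142117031-142117263, read along Mrpl46 on the minus strand), a head-to-head pair of ribosomal protein genes, and it holds none of the 3 cores. The searched window of Mrpl46 holds 1 copy of the YY1 letters, which does not lie within this stretch.
Mrps31: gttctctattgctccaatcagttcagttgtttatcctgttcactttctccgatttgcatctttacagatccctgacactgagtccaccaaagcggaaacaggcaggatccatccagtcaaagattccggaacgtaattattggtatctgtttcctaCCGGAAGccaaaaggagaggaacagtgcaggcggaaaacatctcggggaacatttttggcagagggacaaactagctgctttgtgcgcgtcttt
Mrpl17: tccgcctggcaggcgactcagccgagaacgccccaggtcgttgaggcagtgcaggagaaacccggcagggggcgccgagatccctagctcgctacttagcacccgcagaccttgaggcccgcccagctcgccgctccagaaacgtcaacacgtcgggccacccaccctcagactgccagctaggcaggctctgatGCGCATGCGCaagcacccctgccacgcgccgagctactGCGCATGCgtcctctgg
Mrpl44: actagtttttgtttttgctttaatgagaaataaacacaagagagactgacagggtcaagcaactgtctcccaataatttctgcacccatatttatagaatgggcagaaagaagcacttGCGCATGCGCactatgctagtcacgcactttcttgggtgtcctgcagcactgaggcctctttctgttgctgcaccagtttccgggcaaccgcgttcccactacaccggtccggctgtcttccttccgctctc
Mrpl36: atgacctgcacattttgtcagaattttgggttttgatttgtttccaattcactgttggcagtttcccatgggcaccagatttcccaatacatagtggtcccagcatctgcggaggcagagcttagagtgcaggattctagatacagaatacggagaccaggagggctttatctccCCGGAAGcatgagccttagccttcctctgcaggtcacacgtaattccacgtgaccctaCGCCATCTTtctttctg
Mrpl46 to Mrps11: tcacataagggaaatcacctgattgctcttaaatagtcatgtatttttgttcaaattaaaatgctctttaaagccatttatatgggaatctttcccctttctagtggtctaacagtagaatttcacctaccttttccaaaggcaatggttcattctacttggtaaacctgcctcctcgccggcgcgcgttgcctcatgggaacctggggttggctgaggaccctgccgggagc
The CCGGAAG of Mrps31 began 94 bases before its start, and the window runs into a long non-coding RNA gene on the other strand that starts 93 bases away. Mrpl17 carried the NRF1 letters 3 times, with 1 overlapping pair, and Mrpl44 carried them as 1 such pair. In Mrpl36 the ETS letters began 75 bases, and the YY1 letters on the opposite strand 17 bases, before the start.

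The comparison of tBA with vehicle asks how the liver transcriptome differed after dosing. None of the 66 mitochondrial ribosomal protein genes differed at an adjusted p under 0.05 by limma (adjusted p from 0.223 to 0.997), where 0.0451% of the 11093 genes tested and 0.112% of the probes did. At an unadjusted p under 0.05, 8 of the 66 (12.1%) were higher in tBA and none lower, where the background was 7.59% of genes higher, 7.46% lower and 15.1% in either direction. The count in either direction, 8 of 66, was therefore below the background share. Differences were small, between -0.20 and 0.38. All 66 had a 95% interval that lay within a 2-fold change either way, 63 lay within 1.5-fold, and 58 included 0, with the outermost bounds at 0.613-fold (Mrpl18) and 1.58-fold (Mrpl19).

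The signs were uneven. The difference was positive in 51 genes and negative in 15 (77.3% positive), where 50.4% of all genes tested were positive, and the median was 0.06 beside 0.0024 over all genes. The counts moved with the scaling, as did those of all genes. Quantile normalisation gave 36 positive and 30 negative, beside 47.5% of all genes positive, and centring on the array median gave 62 positive and 4 negative, beside 62.7%. The median of the 66 genes exceeded that of all genes by 0.057 as reported and by 0.025 with quantile normalisation. Centring on the array median left this at 0.057, but it shifts the differences of all genes alike and so is no separate check. All 3 tBA arrays lay above all 3 vehicle arrays for 19 genes (28.8%), where 12.8% of all genes did so. They lay below for 1 gene (Mrpl32), where 11.4% of all genes did so, and the groups did not overlap in 30.3% of the 66 and in 24.2% of all genes. The median gene SD was 0.077 in tBA and 0.072 in vehicle, against 0.15 and 0.14 over all genes tested. Fewer cells of a type and less RNA per cell cannot be told apart in these bulk samples.

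The slides divided this pattern. Taken relative to the vehicle mean, the median of the 66 genes was 0.03, 0.11 and 0.07 on tBA replicates 1, 2 and 3, and -0.03, 0.01 and 0.01 on vehicle replicates 1, 2 and 3. The tBA replicate 1 array, which shared its slide with the vehicle arrays, was thus the lowest of the 3 tBA arrays in its median and was also the lowest for 42 of the 66 genes. On it 41 genes were above the vehicle mean, against 52 on tBA replicate 2 and 51 on tBA replicate 3. The mean of tBA replicates 2 and 3 exceeded tBA replicate 1 in 52 genes, with a median difference of 0.07, where all genes gave -0.02. Within the first slide, where 1 tBA array met 3 vehicle arrays and was assumed to vary as they did, the median difference was 0.03 with 41 genes positive and 25 negative. All genes tested there had a median of 0.02 and 53.3% positive, so that the median of the 66 exceeded that of all genes by 0.013, against 0.057 over all 6 arrays. Within that slide limma gave none of the 66 an unadjusted p under 0.05, where 7.26% of all genes did. The second slide held tBA samples alone and gives no comparison, so for those samples slide and treatment cannot be told apart. In all, 35 genes were above the vehicle mean on every tBA array and 7 were below it on every tBA array.

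**Figure D1:**
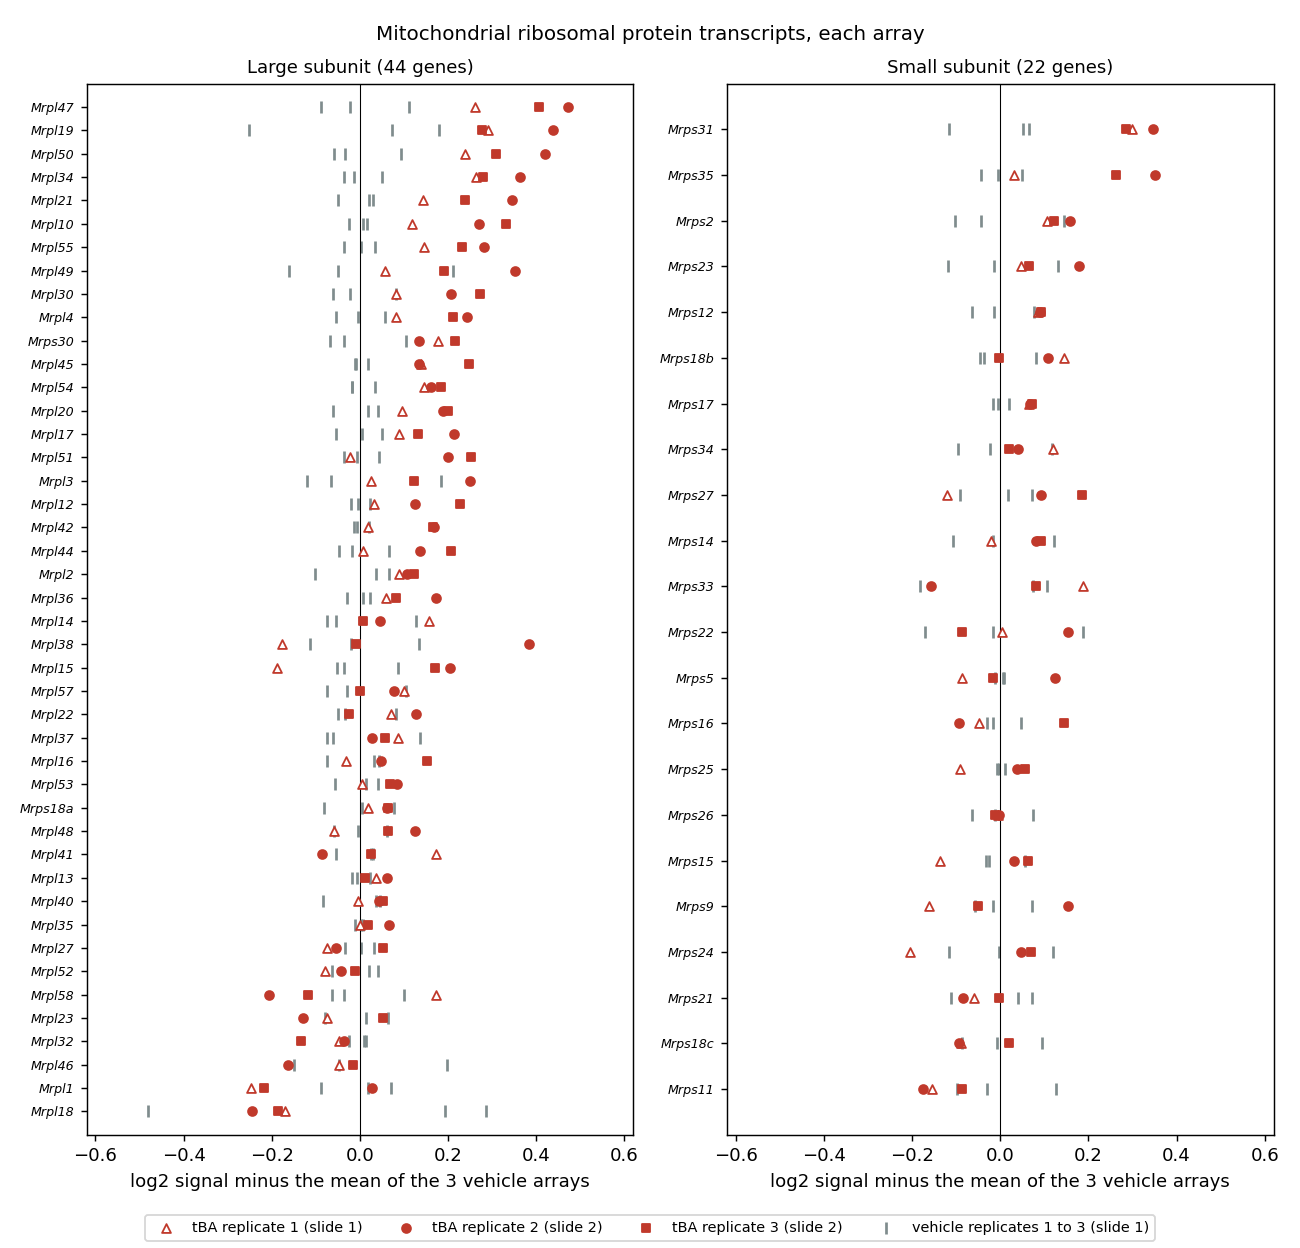
Each row is 1 mitochondrial ribosomal protein gene and each mark 1 array, plotted as log2 signal minus the mean of the 3 vehicle arrays (horizontal axis), with small and large subunit genes in separate panels. The tBA replicate 1 array, which shared the vehicle arrays' slide, has its own mark and is the lowest tBA array for 42 of the 66 genes, and most values lie within 0.4 of the vehicle mean.

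In the large subunit, which holds the peptidyl transferase centre and the exit tunnel, 36 of 44 genes were positive and 7 reached an unadjusted p under 0.05, all higher in tBA, with a median difference of 0.09. At that level 15.9% of the 44 genes were higher, where 7.59% of all genes were. The large subunit group includes Mrps30 and Mrps18a, whose proteins sit in the large subunit despite their small-subunit symbols. The median relative to the vehicle mean was 0.06, 0.13 and 0.12 on tBA replicates 1, 2 and 3. In the small subunit, which binds the message and decodes it, 15 of 22 genes were positive, 1 reached an unadjusted p under 0.05, and the median was 0.03. That 1 gene, higher in tBA, made 4.5% of the 22, where 7.59% of all genes were higher at that level. The small subunit medians were -0.01, 0.07 and 0.06 on the same 3 tBA arrays. Within the large subunit, 20 of 25 genes with bacterial homologues were positive (median 0.11) and 16 of 19 mitochondria-specific genes were (median 0.06). Within the small subunit, 7 of 13 genes with bacterial homologues were positive (median 0.0013) and 8 of 9 mitochondria-specific ones were (median 0.05). The difference between these groups was not tested. Mrps18b and Mrps18c were counted with bacterial homologues and Mrps18a, of the same gene family, as mitochondria-specific. The counts and medians of these classes depend on that choice.

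Among large subunit genes with a bacterial homologue, Mrpl47 had values of 0.15, 0.36 and 0.30 on tBA replicates 1 to 3, against -0.20, -0.13 and 0.00 on vehicle replicates 1 to 3. All 3 tBA values were above all vehicle values, and the difference was 0.38 (SE 0.10, unadjusted p = 0.00914 and adjusted p = 0.223 by limma), 1.3-fold with a 95% interval from 1.1 to 1.55. A second and much dimmer probe of Mrpl47 (tBA mean -4.065, against 0.27 for the probe used) gave a difference of 0.00. Mrpl34 read 5.16, 5.26 and 5.18 in tBA, against 4.86, 4.95 and 4.88 in vehicle. The groups were separate, with a difference of 0.30 (SE 0.08, adjusted p = 0.230 by limma), and a second Mrpl34 probe gave 0.19. Mrpl21 read 1.29, 1.495 and 1.39 in tBA, against 1.099, 1.17 and 1.18 in vehicle. Its groups did not overlap either, and its 1 probe gave a difference of 0.24 (SE 0.09, adjusted p = 0.295 by limma).

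Mrpl10 and Mrpl12 belong to the flexible stalk of the large subunit that recruits translation factors, Mrpl10 as the base that anchors copies of Mrpl12. Mrpl10 read 6.94, 7.09 and 7.15 in tBA, against 6.83, 6.84 and 6.80 in vehicle. tBA replicate 1 lay closest to vehicle but above it, and the difference was 0.24 (SE 0.09, adjusted p = 0.297 by limma). A second and much dimmer Mrpl10 probe (tBA mean 0.39, against 7.06 for the probe used) gave -0.02, the opposite sign. Mrpl12, which in human cells also binds the mitochondrial RNA polymerase, read 4.98, 5.07 and 5.18 in tBA, against 4.93, 4.97 and 4.95 in vehicle. tBA replicate 1 exceeded the highest vehicle value only narrowly, and the difference was 0.13 (SE 0.09, adjusted p = 0.498 by limma). Mrpl55 and Mrpl19 were the other large subunit genes with bacterial homologues at an unadjusted p under 0.05, and both are named here after their values were seen. Mrpl55 read 3.69, 3.83 and 3.78 in tBA and 3.51, 3.55 and 3.58 in vehicle, with a difference of 0.22 (SE 0.08, adjusted p = 0.298 by limma). Mrpl19 read 1.72, 1.87 and 1.71 in tBA and 1.501, 1.18 and 1.61 in vehicle, with a difference of 0.33 (SE 0.13, adjusted p = 0.311 by limma). In Mrpl19 the vehicle replicate 2 value was far below the other vehicle values, so that the vehicle SD was 0.22 against 0.09 in tBA.

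Beyond these 6, another 7 large subunit genes with bacterial homologues had groups that did not overlap. Of these Mrpl4, Mrpl20, Mrpl17, Mrpl12, Mrpl2 and Mrpl36 were higher in tBA, by up to 0.18, and Mrpl32 was lower. With the 6 above, 52% of the 25 genes in this class had groups that did not overlap, where 24.2% of all genes did. Mrpl32, whose precursor is cut by the mitochondrial m-AAA protease before it joins the ribosome (shown in yeast and mouse), read 3.64, 3.65 and 3.56 in tBA, against 3.66, 3.70 and 3.70 in vehicle. The gap between the groups was narrow, and the difference was -0.07 (SE 0.08, adjusted p = 0.669 by limma). A further 8 genes with overlapping groups had positive differences of 0.03 to 0.19 (Mrpl30, Mrpl3, Mrpl14, Mrpl15, Mrpl22, Mrpl16, Mrpl13 and Mrpl35). The remaining 4, with overlapping groups and negative differences, were Mrpl27, Mrpl23, Mrpl1 and Mrpl18.

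Mrpl1, whose bacterial homologue forms the stalk where spent tRNA leaves, read 2.63, 2.90 and 2.66 in tBA, against 2.90, 2.79 and 2.95 in vehicle. tBA replicate 2 reached the vehicle range and the other tBA values lay below it, with a difference of -0.15 (SE 0.11, adjusted p = 0.529 by limma). Mrpl18 read 3.42, 3.35 and 3.41 in tBA, against 3.79, 3.11 and 3.88 in vehicle. Its 3 tBA values sat close together inside a wide vehicle range (SD 0.04 in tBA and 0.42 in vehicle), so the difference of -0.20 carried a SE of 0.21 (adjusted p = 0.650 by limma). The difference of Mrpl18 was -0.44 without vehicle replicate 2 (adjusted p = 0.330 by limma), -0.10 without vehicle replicate 1 and -0.06 without vehicle replicate 3. A second Mrpl18 probe of similar brightness did not have this wide vehicle range. It read 3.27, 3.44 and 3.32 in tBA, against 3.51, 3.405 and 3.49 in vehicle (vehicle SD 0.05). Its difference was -0.12 (SE 0.09, adjusted p = 0.513 by limma).

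Of the 19 mitochondria-specific large subunit genes, Mrpl50 alone reached an unadjusted p under 0.05. It read 1.76, 1.94 and 1.83 in tBA, against 1.46, 1.61 and 1.49 in vehicle, with no overlap and a difference of 0.32 (SE 0.09, adjusted p = 0.244 by limma). Mrps30, Mrpl45 and Mrpl54 also had tBA values above every vehicle value, with differences of 0.16 to 0.18. With Mrpl50, that made 21% of the 19 genes, where 12.8% of all genes had tBA above vehicle throughout. Mrpl45 lies near the exit tunnel, where the ribosome meets the inner membrane. Mrps30 read 3.36, 3.31 and 3.40 in tBA, against 3.11, 3.29 and 3.14 in vehicle, so that vehicle replicate 2 came nearly up to the tBA values (difference 0.18, SE 0.09, adjusted p = 0.379 by limma).

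The other mitochondria-specific large subunit genes had overlapping groups. They were 12 genes with positive differences of 0.03 to 0.20 (Mrpl49, Mrpl51, Mrpl42, Mrpl44, Mrpl38, Mrpl57, Mrpl37, Mrpl53, Mrps18a, Mrpl48, Mrpl41 and Mrpl40) and 3 with negative ones (Mrpl52, Mrpl58 and Mrpl46). Mrps18a read 3.19, 3.23 and 3.23 in tBA, against 3.08, 3.24 and 3.17 in vehicle (difference 0.05, SE 0.09, adjusted p = 0.801 by limma), and its sign turned under quantile normalisation. Mrpl58 encodes a peptidyl-tRNA hydrolase, related to release factors, that is known to free stalled chains. It read 5.35, 4.97 and 5.06 in tBA, against 5.14, 5.11 and 5.28 in vehicle, so that the tBA array on the first slide was the highest of all 6 and the tBA arrays on the second slide were the lowest. The pooled difference of Mrpl58 was -0.05 (SE 0.13, adjusted p = 0.865 by limma), and within the first slide it was 0.17.

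In the small subunit the 9 mitochondria-specific genes held the 1 with an unadjusted p under 0.05. Mrps31 read 3.15, 3.19 and 3.13 in tBA, against 2.73, 2.90 and 2.91 in vehicle. Every tBA value was above every vehicle value, and the difference, from its 1 probe, was 0.31 (SE 0.09, adjusted p = 0.243 by limma), 1.24-fold with a 95% interval from 1.06 to 1.44. Mrps35, Mrps23, Mrps34, Mrps27, Mrps33, Mrps22 and Mrps25 had overlapping groups and differences of 0.00087 to 0.22, and Mrps26 was at -0.0063.

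Of the 13 small subunit genes with bacterial homologues, none reached an unadjusted p under 0.05. Mrps12, a protein of the decoding centre, read 4.18 on each of the 3 tBA arrays, against 4.17, 4.03 and 4.08 in vehicle. The groups were apart by the narrowest of margins at vehicle replicate 1 (difference 0.09, SE 0.08, adjusted p = 0.607 by limma), and the sign turned with normexp background correction. On a second Mrps12 probe of similar brightness the groups overlapped. There vehicle replicate 1 (4.215) lay above the tBA values (4.11, 4.15 and 4.16), and the difference was 0.03. Mrps17, like the Mrps12 probe used, was higher without overlap, by 0.07. With Mrps12, that made 15.4% of the 13 genes, where 12.8% of all genes had tBA above vehicle throughout. Mrps2, Mrps18b, Mrps14, Mrps5 and Mrps16 had overlapping groups and differences of 0.0013 to 0.13. Mrps15, Mrps9, Mrps24, Mrps21, Mrps18c and Mrps11 had overlapping groups and differences of -0.14 to -0.01.

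Mrps11, a small subunit protein with a bacterial homologue at the site where the message passes, had the lowest of these differences. It read 1.29, 1.27 and 1.36 in tBA, against 1.42, 1.35 and 1.57 in vehicle. tBA replicate 3 lay just inside the vehicle range and the other 2 tBA values below it, with a difference of -0.14 (SE 0.09, adjusted p = 0.492 by limma). Its head-to-head neighbour Mrpl46, on the other side of the stretch of 233 bases printed above, read 2.12, 2.00 and 2.15 in tBA, against 2.12, 2.02 and 2.36 in vehicle. Only vehicle replicate 3 stood apart there, and the difference was -0.08 (SE 0.12, adjusted p = 0.768 by limma). Mrps18c read 4.17, 4.16 and 4.28 in tBA, against 4.25, 4.35 and 4.17 in vehicle, with intermixed arrays and a difference of -0.05 (SE 0.09, adjusted p = 0.790 by limma).

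**Figure D2:**
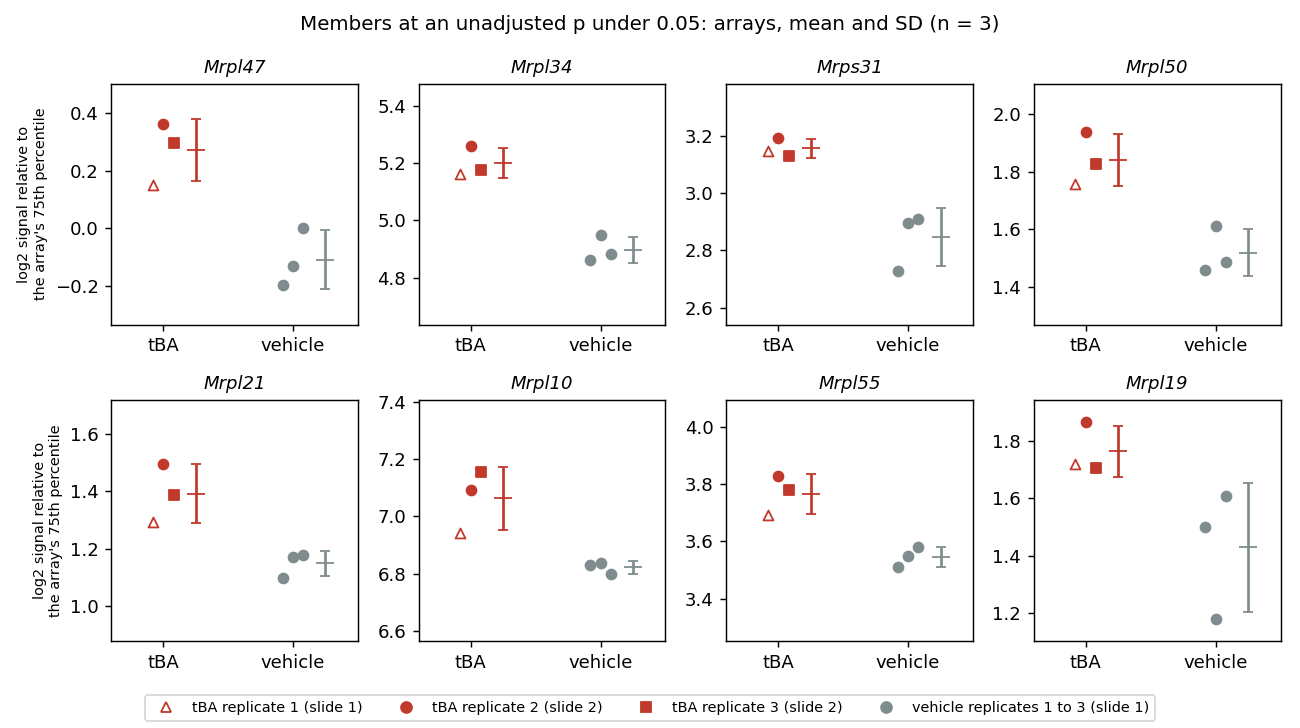
The 8 genes with an unadjusted p under 0.05 are plotted array by array as log2 signal relative to the array's 75th percentile (vertical axis, each panel spanning the same range), with tBA left of vehicle and bars for the mean and SD of 3 samples. In every panel the 3 tBA points lie above the 3 vehicle points, Mrpl47 with the largest difference (0.38) and Mrpl19 with 1 low vehicle value.

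Genes on several probes gave a check within the arrays. Of the 66 genes, 32 had 1 probe and 34 had several, of which 33 had several tested. The other 45 tested probes of these genes were positive in 27 cases and none was called, and 1, another probe of Mrpl17, had an unadjusted p under 0.05 (difference 0.26). Probes of a gene had opposite signs in 8 of 33 genes (24.2%), where the share was 29.7% of the 5497 genes with several tested probes. Mrps27, a mitochondria-specific small subunit protein of the pentatricopeptide repeat family, had the widest such gap. Its brightest probe read -0.995, -0.78 and -0.69 in tBA, against -0.80, -0.97 and -0.86 in vehicle, a difference of 0.05 (SE 0.11, adjusted p = 0.836 by limma), and its other probes gave 0.18 and -0.14. The array on tBA replicate 1 was the lowest of all 6 for that brightest probe, and within the first slide the difference was -0.12.

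Mrpl10, described above, had the next widest gap between probes of opposite sign, and Mrpl2 and Mrpl40 came after it. Mrpl2, which in bacteria lies close to the peptidyl transferase centre, read 3.96, 3.97 and 3.99 in tBA, against 3.77, 3.93 and 3.90 in vehicle, a difference of 0.11 (SE 0.09, adjusted p = 0.560 by limma). Its other probes gave 0.01 and -0.12. Mrpl40 read 4.10, 4.15 and 4.16 in tBA, against 4.02, 4.15 and 4.14 in vehicle, so the groups overlapped at a difference of 0.03 (SE 0.08, adjusted p = 0.879 by limma). Its 3 other probes were all slightly negative, at -0.01, -0.03 and -0.12, and the sign of the brightest probe turned within the first slide.

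RefSeq also lists 40 rat pseudogenes with Mrpl or Mrps symbols. Of the 66 genes, 21 had at least 1 such copy, whose transcripts could share a probe, and their values are uncertain to that extent. Among these 21, 14 were positive with a median difference of 0.06, and among the 45 without one 37 were positive with a median of 0.06.

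**Figure D3:**
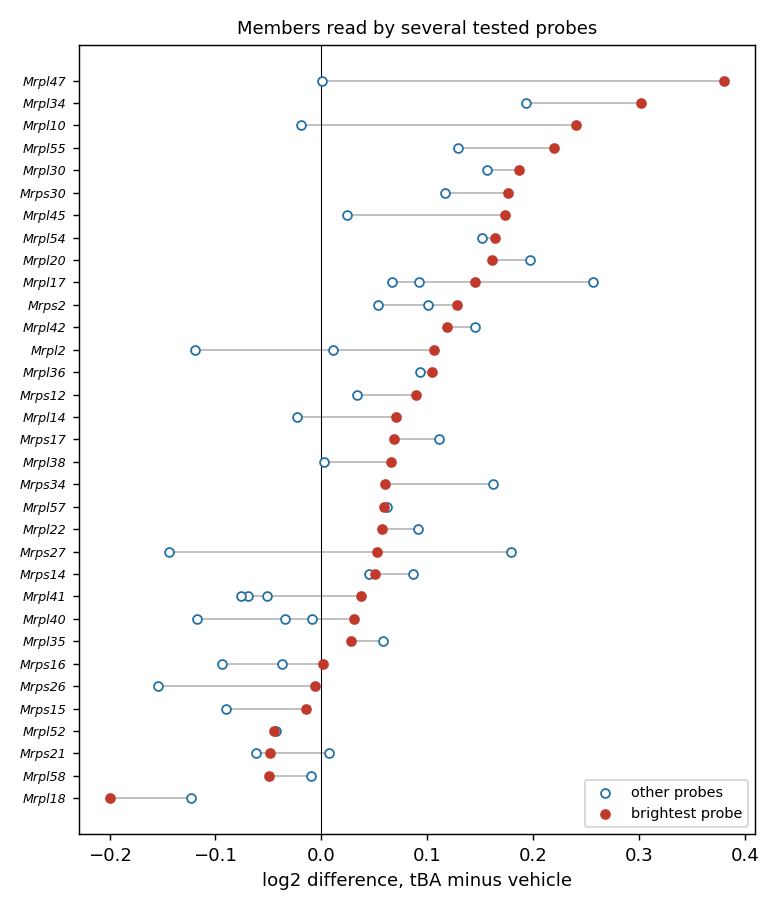
Each row is a gene with several tested probes, and the horizontal axis is the log2 difference, tBA minus vehicle, of each probe. The probe used for the gene is marked apart from its other probes, which fall on both sides of 0 for 8 of the 33 genes.

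Other transcripts for ribosomes and for the respiratory chain, which the mitochondrial ribosome serves, also had mostly positive differences. Of all genes tested, 50.4% were positive and 15.1% had an unadjusted p under 0.05 in either direction. Those shares were 97.3% and 23.0% for cytosolic ribosomal protein genes, and 84.6% and 10.3% for complex I Nduf genes. Of 74 cytosolic ribosomal protein genes, 72 were positive and 17 reached an unadjusted p under 0.05, with a median difference of 0.18, and their medians on tBA replicates 1, 2 and 3 relative to the vehicle mean were 0.14, 0.19 and 0.20. Of 39 Nduf genes for subunits and assembly factors of complex I, 33 were positive and 4 reached an unadjusted p under 0.05, with a median of 0.09 and medians of 0.01, 0.12 and 0.19 on the 3 tBA arrays. Over all 6 arrays the 66 mitochondrial ribosomal protein genes thus had the smallest median of the 3 families. On tBA replicate 1, which shared the vehicle slide, their median (0.03) was instead above that of the Nduf genes (0.01). No difference between families was tested.

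Genes that serve the mitochondrial ribosome under other names were described from lists, and none of them was called. Of all genes tested, 50.4% were positive, 15.1% had an unadjusted p under 0.05 in either direction, and 12.8% had all tBA values above all vehicle values. Of 5 ribosome components with other names, 2 were positive, Ptcd3 (0.22) and Chchd1 (0.16), and both had tBA values above all vehicle values. Of 11 translation factors, 10 were positive and none had an unadjusted p under 0.05. Mtrf1l, a release factor, read 0.67, 1.18 and 0.75 in tBA, against 0.44, 0.60 and 0.45 in vehicle (difference 0.37, SE 0.15, adjusted p = 0.317 by limma). The groups of Mtrf1l did not overlap, and tBA replicate 2 was the highest value.

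Of 23 genes for assembly of the ribosome and modification of its RNA, 17 were positive. At an unadjusted p under 0.05, 3 were higher and 2 lower (21.7% in either direction), where 15.1% of all genes were. Noa1, a GTPase of small subunit assembly, read 0.57, 0.56 and 0.28 in tBA, against 0.07, 0.06 and 0.02 in vehicle (difference 0.42, SE 0.11, adjusted p = 0.216 by limma). Its tBA values were all above vehicle, with replicate 3 the closest. Mterf3, needed in mice for large subunit assembly, was higher by 0.33 (SE 0.09, adjusted p = 0.235 by limma), and Rpusd3, a pseudouridine synthase family member, was at -0.27 (SE 0.09, adjusted p = 0.274 by limma).

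Of 16 genes for mitochondrial transcription and message stability, 13 were positive. An unadjusted p under 0.05 was found for 4 (25%), all higher in tBA, where 7.59% of all genes were. Tfb2m, the transcription factor that opens mitochondrial promoters, read 1.43, 1.60 and 1.44 in tBA, against 1.16, 1.07 and 1.12 in vehicle (difference 0.37, SE 0.09, adjusted p = 0.208 by limma). The groups were well apart. Lrpprc, which stabilises mitochondrial messages, differed by 0.27 (SE 0.09, adjusted p = 0.263 by limma) and Mterf1 by 0.26 (SE 0.09, adjusted p = 0.274 by limma).

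Of 16 mitochondrial tRNA synthetases, 11 were positive, with 2 at an unadjusted p under 0.05 on the higher side (Ears2 at 0.51 and Yars2 at 0.26) and 1 on the lower (Vars2 at -0.22). In either direction that was 18.8%, where 15.1% of all genes reached that level. Of 9 regulators of mitochondrial biogenesis, 7 were positive. Esrra, an orphan nuclear receptor that acts on such genes, had the 1 unadjusted p under 0.05 (11.1%, where 7.59% of all genes were higher at that level). Esrra read 3.60, 3.68 and 3.71 in tBA, against 3.38, 3.42 and 3.46 in vehicle (difference 0.24, SE 0.08, adjusted p = 0.270 by limma), again with no overlap. Yy1 and Nrf1, factors whose core letters were searched above, were at 0.17 and 0.18. Gabpa and Gabpb1, the genes for GABP, whose core letters were also searched, were at 0.04 and -0.17. Of 15 genes for import and the outer membrane, 12 were positive. An unadjusted p under 0.05 was found for 5 (33.3%), all higher in tBA, where 7.59% of all genes were. The smallest p-values were those of the import receptors Tomm22 (0.31) and Tomm20 (0.34) and the channel Vdac3 (0.26), and the widest difference was that of Tomm70 (0.42), another import receptor, named here after its value was seen.

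Of the 8 ribosomal genes with an unadjusted p under 0.05, 6 had a promoter window, and 1 of these 6 held the ETS letters (Mrps31) and 1 the YY1 letters (Mrpl50). Another gene start on the opposite strand lay within 500 bases upstream in 14 of the 54 windows (25.9%), against 12.6% of windows of tested genes and 8.79% of all windows. The neighbours included other genes for translation or respiration. Mrpl47 (0.38) faced Ndufb5 (0.09), a complex I subunit, over 244 bases. Mrpl49 (0.20) faced Fau (0.18), the gene of a cytosolic ribosomal protein, over 186 bases, and Mrpl32 (-0.07) faced the proteasome gene Psma2 (0.38) over 210 bases. The pairs were thus of like sign in some cases and of opposite sign in others, and no member of these pairs passed the adjusted threshold.

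The samples were checked for their labelled tissue and for other cells. All 12 hepatocyte markers were measured, and their summed linear level relative to the 75th percentile was 5162 to 5213 in tBA and 4773 to 5419 in vehicle. The sum of 3 measured endothelial markers was 50.4 to 52.8 in tBA and 42.7 to 48.3 in vehicle, with all 3 markers positive. The sum of the skeletal muscle markers was 1.64 to 2.00 in tBA and 1.35 to 1.49 in vehicle, with 4 of 6 tested markers positive and Myh1 and Myh4 not above background on any array. The endothelial and muscle sums were thus higher on every tBA array than on every vehicle array, and their part in the result was not tested. Sums overlapped between the groups for macrophage markers (90.8 to 96.1 in tBA and 90.4 to 110.7 in vehicle), although 5 of the 6 had negative differences (median -0.20), and for stellate cell markers (9.25 to 11.2 in tBA and 9.59 to 13.6 in vehicle), where all 6 were negative (median -0.09). No marker of either list had an unadjusted p under 0.05 by limma. Sums also overlapped for red blood cell (795 to 1190 in tBA and 775 to 1108 in vehicle) and adipocyte markers (19.0 to 21.0 in tBA and 16.9 to 19.5 in vehicle, with Lep and Adipoq not above background). They also overlapped for pancreas markers (0.50 to 1.74 in tBA and 0.58 to 0.72 in vehicle, with Prss1, Pnlip and Cela1 not above background), and for bile duct, T and NK cell and B cell markers. Of 4 tested T and NK cell markers 3 were negative, as were both tested B cell markers. Across all marker lists, Ass1, Kdr and Acta1 were higher and Cd8a lower (-0.64) at an unadjusted p under 0.05 by limma. No marker passed the adjusted threshold.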

How the data were processed

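Spot intensity was extracted and background-corrected by the authors with Agilent Feature Extraction (10.7 in the submitters' processing notes, 10.7.1.1 per the file headers), and the scanner intensities were deposited without normalisation between arrays. A further table deposited by the authors holds linear ratio values, each array's processed signal over a divisor of 570.0 to 639.5, close to its 75th percentile (column medians 0.095 to 0.102). No later step is given in the sources used here. From the deposited processed intensity, log2 values minus each array's 75th percentile were computed. Control spots were left out, outlier-marked spots (3 to 16 an array) were set missing, and a probe was tested if every array of the tBA group, or every array of the vehicle group, had it well above background. Tests used limma 3.58.1 in R 4.3.3 (Benjamini-Hochberg over 37647 probes). For 3 against 3 samples, p = 0.1 is the smallest that an exact two-sided permutation test gives. Per the labels, each group was 3 animals, and that number limits precision.

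Accessions matched RefSeq GRCr8 for 27460 of 61657 probes. The array files name rn4, so no coordinates were taken from the array. The members, the gene lists and the rule for named genes were chosen with earlier results of these data known. That rule takes the 6 smallest p-values on each side, Mrpl12, Mrps12, Mrpl58, Mrps30 and Mrps18a, up to 4 genes whose probes disagree, and up to 3 genes from each other list. Mrpl47 was moved to the genes with bacterial homologues after its values were seen, to correct its class.

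Alternatives covered background correction, normalisation, filters, floor, slide, replicate block, left-out samples and averaging of probes. The normexp alternative, planned on the uncorrected spot signal, used the median spot signal with the local background.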

Additional observations from a re-analysis of the deposited data

How the results depend on the processing

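No mitochondrial ribosomal protein gene was called by limma under any of the 20 alternatives, and the lowest adjusted p of a named gene was 0.136. Genes at an unadjusted p under 0.05 numbered 8 as reported, where 15.1% of all genes reached that level. They numbered 11 with normexp (17.2% of all genes), 4 with quantile normalisation (14.4%) and 14 with the array median (17.9%). Counts were 4 with the percentile over detected probes (14.9%), 4 without a filter (9.44%) and 12 with an intensity trend (17.6%). The mean of a gene's probes gave 5 (15.6%), and slide as a fixed block gave 0 (7.43%). Leaving out 1 sample gave 4 to 8, where 9.91% to 15.9% of all genes reached that level. Dropping tBA replicate 1 gave 8 (15.9% of all genes). The count was 4 on dropping tBA replicate 2 (9.91%), tBA replicate 3 (12.4%) or vehicle replicate 1 (11.3%). It was 5 on dropping vehicle replicate 2 (11.1%) or 3 (12.9%). Of the 5 without vehicle replicate 2, 4 were higher in tBA, and Mrpl18 was lower. The median difference (0.0595) was 0.0121 with quantile normalisation and 0.133 with the array median (all genes -0.0126 and 0.0761), and 0.0442 to 0.0813 with a sample left out, while genes with a positive difference were 47 to 52. Called probes (42) were 18 without a filter, 0 when well above background on all 6 arrays (15.3% of genes at an unadjusted p under 0.05), 64 with one floor, 68 with an intensity trend, 20 with slide as a fixed block, 0 on slide 1 alone and 6 to 45 with a sample left out (6 and 14 on dropping tBA replicate 2 or 3, 22 and 25 on dropping vehicle replicate 1 or 3). Same-numbered samples did not deviate together (correlations -0.0562, -0.0643 and 0.0141). The replicate block gave 6 called probes and 4 of the 66 genes at an unadjusted p under 0.05, where 12.1% of all genes were. Of 400 values of the 20 named genes, 381 kept their direction and 19 turned. Mrps12 was -0.00435 and Mrpl40 -0.0504 with normexp, Mrps18a -0.0165 and Mrpl40 -0.025 with quantile normalisation, and Mrpl32 0.00132, Mrps18c 0.0199 and Mrpl58 0.0241 with the array median. With slide as a block, and on slide 1 alone, Mrpl58 was 0.174, Mrps27 -0.12 and Mrpl40 -0.00384. With a sample left out, Mrpl58 ran from -0.161 to 0.0284 (tBA replicate 2 dropped), Mrps27 from -0.0139 (tBA replicate 3 dropped) to 0.139, Mrpl40 from -0.0116 (vehicle replicate 1 dropped) to 0.0537 and Mrpl46 from -0.151 to 0.0227 (vehicle replicate 3 dropped). With the mean of probes Mrpl2 was -0.000739 and Mrpl40 -0.0326. The causes were not tested. Where an arm was left with 1 sample, it was assumed to vary like the other group.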
